A study of Mus musculus with 6 samples.

Results

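Cd177, Ceacam10 and Pglyrp1, with Emb, Myo7a, Cst6 and Slc35f1, are 7 of the 54532 Ensembl gene IDs measured by RNAseq in 6 mammary tumors of NeuT/ATTAC mice. They were picked because their level was far higher in the 3 anti-PD-1 tumors than in 2 of the 3 IgG tumors (replicates 2 and 3). Their difference between the groups is therefore a description, and no test of it is given. All 7 genes were found and all 7 passed the filter on low values.

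NeuT/ATTAC mice carry Erbb2 under the MMTV promoter, which is active in mammary epithelium, and the FAT-ATTAC transgene, with which the dimerizer AP20187 ablates adipose tissue and brings on fibrosis. FAT-ATTAC came from a C57BL/6 background and was crossed into FVB. Every tumor of both groups carried both transgenes, and every mouse received 0.4 mg/kg AP20187 i.p. from 6 weeks of age. From 8 weeks of age, 100 μg of anti-PD-1 mAb (3 tumors) or isotype IgG (3 tumors) was injected 2 times per week. Tumors are numbered by their replicate label, and those of anti-PD-1 mice are called treated. The labels do not say whether the tumors of a group came from separate mice, and the study describes the RNA of a group as pooled although the values come as 3 libraries per group. The p-values thus measure only the spread between these libraries, which may be in part technical. Values are FPKM, fragments scaled to exon length and to sequencing depth, so that levels can be compared between genes. The reads recovered from them ran from 21075641 to 23852764 per tumor, and 3 reads on a 2 kb transcript equal 0.0586 to 0.0682 FPKM. The RNA was rich in epithelial transcripts, with Epcam from 689.9 to 1149.9 FPKM, and Adipoq, a defining fat cell gene, from 0.0299 to 1.19 FPKM.

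Cd177 and Pglyrp1 are best known from neutrophils. Cd177 is a surface protein anchored by glycosylphosphatidylinositol, known in humans to hold proteinase 3 on the neutrophil and to bind PECAM1. Pglyrp1 is a secreted protein of neutrophil granules that binds bacterial peptidoglycan and kills bacteria. Ceacam10 is a secreted member of the carcinoembryonic antigen family, whose members are common on epithelia and on granulocytes. The other 4 genes have no shared role: Emb, or embigin, escorts monocarboxylate transporters to the membrane, Myo7a is the motor protein of sensory hair bundles, Cst6 is a secreted inhibitor of legumain and cathepsins made by epithelia, and Slc35f1 belongs to a family of nucleotide sugar transporter relatives.

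Cd177 (ENSMUSG00000052212, chromosome 7 from 24743983 to 24760311, minus strand, mm10) was measured at 36.7, 8.13 and 8.44 FPKM across IgG tumors 1 to 3 and at 108, 67.1 and 73.2 FPKM across treated tumors 1 to 3. The groups did not overlap. IgG tumor 1 lay between the other IgG tumors and the treated tumors, at 4.35 times the higher of IgG tumors 2 and 3 and 44.3% of the mean of the treated tumors. The mean was 17.8 ± 16.4 (SD, n = 3) FPKM in IgG and 82.9 ± 22.3 (SD, n = 3) FPKM in treated tumors, and the log2 fold change, anti-PD-1 minus IgG on the log2(FPKM + 1) scale, was 2.47 (standard error, SE, 0.54). Between 554 and 7877 reads stood behind each value.

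Ceacam10 (ENSMUSG00000054169, chromosome 7 from 24777206 to 24784657, plus strand) is the next protein-coding gene, 16894 bp from Cd177. It was measured at 78.8, 11.9 and 9.01 FPKM across IgG tumors 1 to 3 and at 108, 113 and 191 FPKM across treated tumors 1 to 3. IgG tumor 1 was again apart from IgG tumors 2 and 3, and the groups again did not overlap. The mean was 33.3 ± 39.5 (SD, n = 3) FPKM in IgG and 137 ± 46.7 (SD, n = 3) FPKM in treated tumors, a log2 fold change of 2.62 (SE 0.74).

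Pglyrp1 (ENSMUSG00000030413, chromosome 7 from 18871331 to 18890459, plus strand) was the most abundant of the 7 genes in every tumor. It was measured at 180.0, 27.6 and 46.1 FPKM across IgG tumors 1 to 3 and at 348, 624 and 420.2 FPKM across treated tumors 1 to 3. The lowest treated tumor stood at 7.55 times the higher of IgG tumors 2 and 3, against 7.95 times for Cd177 and 9.05 times for Ceacam10. The mean was 84.6 ± 83.2 (SD, n = 3) FPKM in IgG and 464 ± 143 (SD, n = 3) FPKM in treated tumors, with a log2 fold change of 2.86 (SE 0.64).

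Within the treated tumors the 3 genes did not keep the same order. Cd177 was highest in treated tumor 1, Pglyrp1 in treated tumor 2 and Ceacam10 in treated tumor 3. The ratio of Ceacam10 to Cd177 FPKM was 2.15, 1.47 and 1.07 across IgG tumors 1 to 3 and 0.996, 1.68 and 2.61 across treated tumors 1 to 3. That of Pglyrp1 to Cd177 was 4.90, 3.39 and 5.47 in IgG and 3.21, 9.29 and 5.74 in treated tumors. The ratios of both groups thus overlapped while the levels did not.

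**Figure D1:**
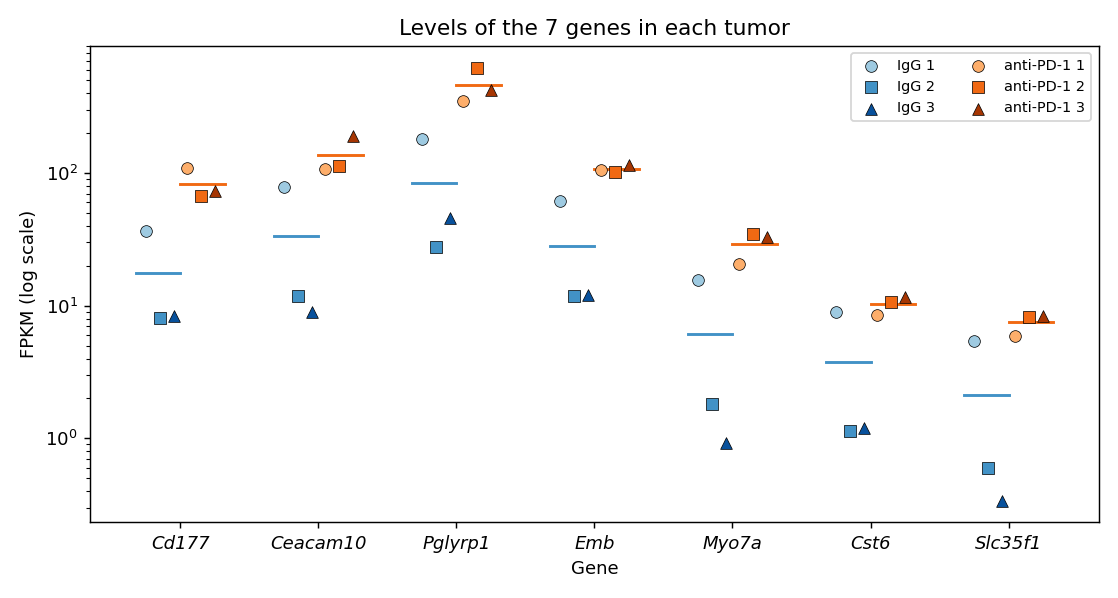
FPKM of the 7 genes in each tumor on a log scale, with IgG tumors in blue, treated tumors in orange and the group means as horizontal lines. In every gene IgG tumors 2 and 3 are the lowest points, and IgG tumor 1 lies between them and the treated tumors, except in Cst6, where it is above 1 of the treated tumors.

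Emb (ENSMUSG00000021728, chromosome 13 from 117208536 to 117274415, plus strand) had the steadiest values within the treated group. It was measured at 61.2, 11.8 and 12.0 FPKM across IgG tumors 1 to 3 and at 106, 102 and 114 FPKM across treated tumors 1 to 3, a highest to lowest ratio of 1.12 among the latter. The log2 fold change was 2.32 (SE 0.58). The antisense gene Gm17509 overlaps Emb, and whether reads were counted by strand is not given in the sources used here. Reads in the part that these genes share thus cannot be told apart. Of the 31-base stretches of Emb transcripts, 17.4% also occurred in transcripts of other genes, Gm17509 among them.

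Myo7a (ENSMUSG00000030761, chromosome 7 from 98051060 to 98119524, minus strand) was low in IgG tumors 2 and 3, at 1.83 and 0.923 FPKM, and was measured at 15.7 FPKM in IgG tumor 1. The treated tumors stood at 20.5, 34.6 and 33.1 FPKM in tumors 1 to 3. No other of the 7 genes had so large a step from the higher of IgG tumors 2 and 3 to the lowest treated tumor, at 11.2 times. The log2 fold change was 2.72 (SE 0.75).

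Cst6 (ENSMUSG00000024846, chromosome 19 from 5344705 to 5349574, minus strand) was the exception among the 7 in that the groups overlapped. It was measured at 8.90, 1.14 and 1.19 FPKM across IgG tumors 1 to 3 and at 8.45, 10.7 and 11.7 FPKM across treated tumors 1 to 3, with IgG tumor 1 above treated tumor 1. Its log2 fold change was 1.64 (SE 0.57), the smallest of the 7.

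Slc35f1 (ENSMUSG00000038602, chromosome 10 from 52690533 to 53111622, plus strand, overlapped by Gm25664, Gm47621, Gm47622, Gm47623 and Gm47624) was the lowest of the 7 in level. Its values were 5.43, 0.599 and 0.340 FPKM across IgG tumors 1 to 3 and 5.92, 8.21 and 8.36 FPKM across treated tumors 1 to 3. Only 71 and 41 reads stood behind IgG tumors 2 and 3, against 590 in IgG tumor 1. The log2 fold change was 1.81 (SE 0.56), and 2.86 with limma's voom on the recovered reads, which adds no 1 to the FPKM.

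The median log2 fold change of the 7 genes was 2.47, from 1.64 to 2.86, against 0.01 over the 15069 genes tested. In 6 of the 7 the groups did not overlap, with the treated tumors higher. This held for 9.10% of all tested genes, and the opposite order for 8.99%. Since the 7 genes were chosen on this contrast, nothing is read from that count. IgG tumor 1 was the highest IgG tumor in 7 of 7. Without IgG tumor 1 the log2 fold changes were the highest of all settings that leave out a tumor, at 3.15 for Cd177, 3.56 for Ceacam10, 3.62 for Pglyrp1, 3.07 for Emb, 3.67 for Myo7a, 2.37 for Cst6 and 2.52 for Slc35f1. The rule set no numerical limit. Ranked by the step on the log2(FPKM + 1) scale from the higher of IgG tumors 2 and 3 to the lowest treated tumor, the 7 genes held ranks 2 (Ceacam10), 3 (Emb), 4 (Myo7a), 5 (Pglyrp1), 7 (Cd177), 12 (Slc35f1) and 13 (Cst6), the last with a step of 2.11. The first gene after Cst6 was Loxl3, at 58.2 FPKM in the lowest treated tumor and 13.1 in the higher of IgG tumors 2 and 3.

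Profiles across the 6 tumors were compared by the root mean square difference of centred log2(FPKM + 1) values from the mean profile of Cd177, Ceacam10 and Pglyrp1. That mean profile was 0.26, -2.18 and -2.05 across IgG tumors 1 to 3 and 1.25, 1.31 and 1.42 across treated tumors 1 to 3. Emb was the most alike of all 15069 tested genes, at a difference of 0.178, closer than Cd177, Ceacam10 and Pglyrp1 themselves (0.290, 0.298 and 0.314). Myo7a ranked 5 (0.321), Slc35f1 ranked 7 (0.453) and Cst6 ranked 9 (0.517). All 7 genes were picked for low values in IgG tumors 2 and 3 and high values in the treated tumors, so these ranks follow from that choice and are a description.

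Outside the 7, the 10 most alike genes were Loxl3, Chadl, Gjb1, Pla2g7, Gm17622, Cdkn1a, Gapdh, Foxa3, Pthlh and 4930503L19Rik, with differences from 0.412 to 0.583. Likeness was taken over 6 tumors of which the same 2 were low, and it says nothing of shared function. Gapdh, an enzyme of glycolysis often used to normalize expression, was measured at 796, 168 and 293 FPKM across IgG tumors 1 to 3 and at 872, 1199.7 and 1236 FPKM across treated tumors 1 to 3. Its 2 lowest tumors were the same as in the 7 genes. Cdkn1a, a cell cycle inhibitor, was at 40.2, 6.84 and 5.94 FPKM in IgG and at 36.4, 60.3 and 149 FPKM in treated tumors. Loxl3, a lysyl oxidase that crosslinks matrix, was at 43.9, 11.0 and 13.1 FPKM in IgG and 58.2, 87.5 and 92.0 FPKM in treated tumors. The gap junction gene Gjb1 was at 17.6, 4.37 and 8.66 FPKM in IgG and 29.9, 40.2 and 47.3 FPKM in treated tumors, and Gm17622 has an exon length of only 45 bases and at most 10 reads in a tumor.

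**Figure D2:**
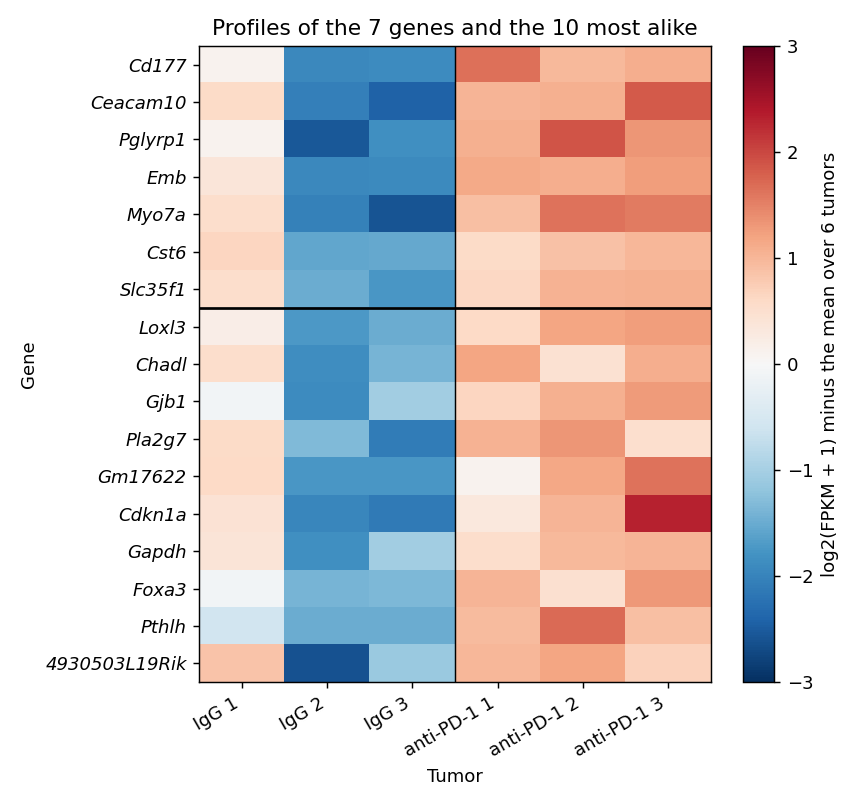
Heat map of log2(FPKM + 1) minus the mean over the 6 tumors, with the 7 genes above the black line and the 10 most alike tested genes below it, and 1 column per tumor. IgG tumors 2 and 3 are blue in every row, and IgG tumor 1 is near 0 or pale red in most rows, between the other IgG tumors and the treated tumors.

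Apart from Ltf and S100a8, no listed marker of neutrophils was above 4.94 FPKM in any tumor. Several genes that define neutrophils and their precursors were at or near 0. Ly6g was at 0 in all IgG tumors and at 0.0415, 0.306 and 0 across treated tumors 1 to 3, Mpo was at most 0.0843 FPKM, and Elane at most 0.0462 FPKM. Ctsg was at 0 in all 6 tumors. Other granulocyte genes were detected. Prtn3, a protease of the granules that also store Mpo and Elane, was at 2.20, 1.85 and 0.142 FPKM in IgG and 1.22, 0.833 and 0.608 FPKM in treated tumors, on at most 84 reads. The integrin gene Itgb2l was between 0.976 and 1.51 FPKM, and Padi4, an enzyme that citrullinates histones, between 0.330 and 1.38 FPKM. Csf3r, the receptor of granulocyte colony-stimulating factor, was measured at 1.13, 1.88 and 1.24 FPKM across IgG tumors 1 to 3 and at 1.54, 1.55 and 1.75 FPKM across treated tumors 1 to 3, a log2 fold change of 0.13 (SE 0.19, limma adjusted p = 0.818). Cxcr2, a chemokine receptor of mature neutrophils, was between 0.0134 and 0.346 FPKM.

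S100a8 and S100a9 encode calprotectin, an abundant protein of neutrophils. S100a8 was at 8.05, 0.961 and 1.06 FPKM across IgG tumors 1 to 3 and at 4.05, 21.1 and 2.12 FPKM across treated tumors 1 to 3, with a log2 fold change of 1.09 (SE 0.84, limma adjusted p = 0.621) and overlapping groups. Single tumors moved that value, to 0.27 without treated tumor 2 and 1.81 without IgG tumor 1. In treated tumor 2 S100a8 rested on 355 reads and lay above every value of Cst6 and Slc35f1. IgG tumor 1 was again the highest IgG tumor, but treated tumor 3, among the highest in the 7 genes, had less S100a8 than IgG tumor 1. S100a9 was at 3.13, 2.79 and 0.549 FPKM in IgG and at 4.94, 2.92 and 2.10 FPKM in treated tumors, with a log2 fold change of 0.53 (SE 0.42, limma adjusted p = 0.628). Of the 20 neutrophil markers listed, 7 passed the filter on low values and 13 were under 1 FPKM in every tumor. None of these 7 markers had a limma p under 0.05 before adjustment. A gene was called higher or lower by a limma p under 0.05 before adjustment together with a 1.5-fold difference, thresholds that 3.90% of all tested genes passed as higher and 4.53% as lower. The median log2 fold change of the 7 tested markers was 0.13. Without IgG tumor 1, Padi4 was called higher (log2 fold change 0.60), and without IgG tumor 3, Prtn3 was called lower (-0.69).

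Ltf, also a milk protein gene, dominated the summed FPKM of the list, at 953 FPKM in IgG tumor 2 and between 14.3 and 116 FPKM in the other tumors. Leaving Ltf out, the summed FPKM of the list was 18.3, 9.91 and 4.91 across IgG tumors 1 to 3 and 16.1, 29.8 and 10.4 across treated tumors 1 to 3. The sum of Cd177, Ceacam10 and Pglyrp1 was 296, 47.6 and 63.6 FPKM in IgG and 564, 803 and 684 FPKM in treated tumors. The ratio of Cd177 to S100a8 FPKM was 4.56, 8.46 and 7.94 in IgG and 26.7, 3.18 and 34.5 in treated tumors, so that the groups overlapped and treated tumor 2 was the lowest of the 6. The ratio of Cd177 to S100a9 was 11.7, 2.91 and 15.4 in IgG and 21.9, 23.0 and 34.9 in treated tumors, and that of Cd177 to Csf3r was 32.4, 4.32 and 6.82 in IgG and 70.5, 43.2 and 41.9 in treated tumors. Because Cd177 was chosen on this contrast, these ratios are a description and nothing is read from their order. In bulk tumor RNA, fewer cells of a type and less RNA per cell cannot be told apart.

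Epithelial markers were abundant in every tumor. Epcam, an epithelial adhesion molecule, was measured at 885, 861 and 689.9 FPKM across IgG tumors 1 to 3 and at 988, 1149.9 and 1122 FPKM across treated tumors 1 to 3. The groups did not overlap, and the log2 fold change was 0.43 (SE 0.22, limma adjusted p = 0.462). The keratin gene Krt8 was at 689, 542 and 431 FPKM in IgG and 648, 555 and 1041 FPKM in treated tumors, and Krt18 at 959, 709 and 685 FPKM in IgG and 756, 895 and 1385 FPKM in treated tumors. In both keratins, as in the 7 genes, IgG tumor 1 was the highest IgG tumor, but it lay within the range of the treated tumors. The tight junction gene Cldn3 was at 318, 320.3 and 256 FPKM in IgG and 491, 385 and 308 FPKM in treated tumors.

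All 20 epithelial markers were tested, and their median log2 fold change was 0.34, with 13 above 0. Of them 1 was called higher (Krt7, log2 fold change 1.07, limma adjusted p = 0.362) and 3 were called lower (Krt19, -2.03, limma adjusted p = 0.404; Esrp1, -0.60, limma adjusted p = 0.403; St14, -0.88, limma adjusted p = 0.395), so that no common direction passed the thresholds. Krt7 was not called without treated tumor 1 or 2. The call of Krt19 was lost without any 1 of the treated tumors, and with no filter, quantile normalization, eBayes without the trend or voom. Esrp1 lost its call without IgG tumor 2 or 3, treated tumor 1 or 3, the filter or the eBayes trend. St14 was not called without IgG tumor 2 or 3 or treated tumor 2 or 3, with no filter or with the replicate block. Krt19 was at 77.9 FPKM in IgG tumor 2 and between 1.70 and 7.84 FPKM in the other tumors, and -0.97 was its log2 fold change when that tumor was left out. Without IgG tumor 1 the count of higher markers was 4, with Cldn4, Grhl2 and Prom1 added. Grhl2 was also called higher without treated tumor 1 (0.73). Krt7 was at 23.4, 17.7 and 8.68 FPKM in IgG and 33.6, 43.7 and 24.9 FPKM in treated tumors. Cldn4 was at 98.7, 65.6 and 18.9 FPKM in IgG and 112, 133 and 60.2 FPKM in treated tumors. Prom1 was at 28.6, 9.07 and 10.9 FPKM in IgG and 23.2, 38.6 and 23.2 FPKM in treated tumors. On the lower side, the epithelial transcription factor gene Elf5 was called with quantile normalization (-0.69), with voom (-0.61), without IgG tumor 3 (-0.81) and without treated tumor 2 (-0.77), and Ehf with quantile normalization (-0.76) and without IgG tumor 3 (-0.87). The summed FPKM of the epithelial list was 2721 to 3638 in IgG and 3698 to 4513 in treated tumors, without overlap. Of the 20 markers, 4 were higher without overlap and 1 lower, against 9.10% and 8.99% of all tested genes. Per 1000 FPKM of Epcam, Cd177 stood at 41.5, 9.45 and 12.2 FPKM across IgG tumors 1 to 3 and at 109.7, 58.3 and 65.3 FPKM across treated tumors 1 to 3. These values keep the order by which Cd177 was chosen. Which cells held the RNA of the 7 genes was not tested by these bulk values.

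**Figure D3:**
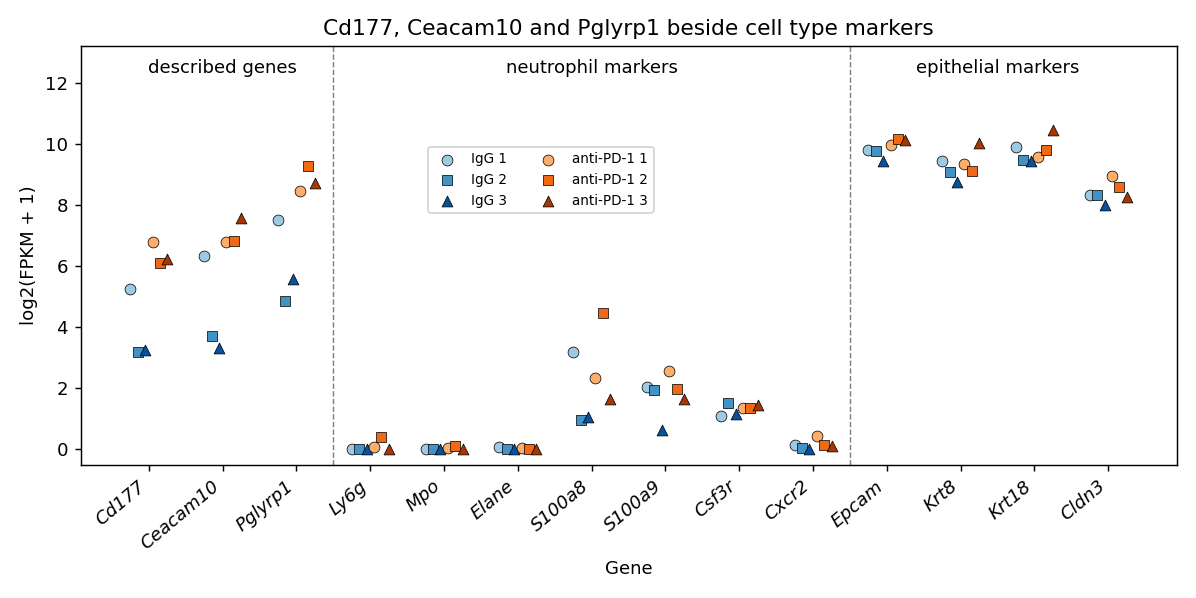
log2(FPKM + 1) of Cd177, Ceacam10 and Pglyrp1 beside 7 neutrophil and 4 epithelial markers, 1 symbol per tumor. Ly6g, Mpo, Elane and Cxcr2 lie at or near 0 in all tumors. The 4 epithelial markers, the most abundant of their list, are high in all tumors with smaller gaps between the groups. Most points of Cd177, Ceacam10 and Pglyrp1 lie between these epithelial markers and the genes near 0.

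Markers of other cells were counted in the same way. The median log2 fold change of 10 macrophage markers was 0.33, against 0.0072 over all tested genes, with values from 0.0019 (Fcgr1) and 0.0055 (Adgre1) to 0.76. Their summed FPKM was 386 to 613 in IgG and 420.3 to 812 in treated tumors, and 1 was called higher (Cd68, a lysosomal protein of macrophages, log2 fold change 0.76, limma adjusted p = 0.344). IgG tumor 1 did not stand apart in that sum, at 535 FPKM. The fibroblast list had a median of 0.10. Its sums were 249.7, 90.6 and 118 FPKM in IgG and 358, 97.9 and 217 FPKM in treated tumors. IgG tumor 1 was thus the highest IgG tumor, as in the 7 genes, but it lay above treated tumors 2 and 3. Of 10 endothelial markers none was called, with a median of -0.19, and 3 tested adipocyte markers had a median of -0.32. The T cell list summed to 2.52, 6.51 and 3.02 FPKM in IgG and 2.34, 1.98 and 2.42 FPKM in treated tumors. These sums did not overlap, at 2.52 FPKM in the lowest IgG and 2.42 FPKM in the highest treated tumor. Of the 10 genes, 7 were under 1 FPKM in every tumor. Only 1 passed the filter (Lck, a T cell kinase, log2 fold change -0.45, SE 0.24, limma adjusted p = 0.482). Lck was lower in all treated tumors than in all IgG tumors, as were 8.99% of all tested genes. The part of any of these cells in the 7 genes was not tested.

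The known partners and relatives of the 7 genes were examined next. In human neutrophils CD177 acts with ITGAM and ITGB2 and presents PRTN3, and Cd177 shares its fold with the Ly6/uPAR family. Of 15 such genes listed, 10 were tested, 1 was called higher and 1 lower, and the median log2 fold change was 0.12. The higher gene was Lypd3, a surface protein of epithelia encoded near Cd177, at 16.1, 9.55 and 5.57 FPKM across IgG tumors 1 to 3 and at 30.1, 19.7 and 22.2 FPKM across treated tumors 1 to 3 (log2 fold change 1.22, SE 0.35, limma adjusted p = 0.344). The lower gene was Ly6d, a keratinocyte and lymphocyte antigen, at 12.7, 39.4 and 45.5 FPKM in IgG and at 10.2, 2.16 and 1.75 FPKM in treated tumors (log2 fold change -2.67, SE 0.65, limma adjusted p = 0.344). In Ly6d the tumors were ordered the other way, with IgG tumor 1 below IgG tumors 2 and 3. Both calls were kept in all 14 alternatives, with the log2 fold change of Ly6d at -2.30 to -3.32 (the latter without treated tumor 1) and that of Lypd3 at 0.88 (without IgG tumor 3) to 1.57 (without IgG tumor 1) when single tumors were left out. Plaur, the urokinase receptor, was not called (0.85, limma adjusted p = 0.435), but was without IgG tumor 1 (1.22). The most abundant gene of this list, Ly6e, was at 411 to 709 FPKM in IgG and 457 to 730.4 FPKM in treated tumors.

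The Ceacam family was at low levels apart from Ceacam10 and Ceacam1. Of 14 relatives, 7 were at 0 in every tumor and 11 under 1 FPKM throughout. Ceacam1, the widely expressed epithelial member, was measured at 80.2, 73.9 and 61.3 FPKM across IgG tumors 1 to 3 and at 54.4, 103 and 86.7 FPKM across treated tumors 1 to 3, with overlapping groups (log2 fold change 0.14, SE 0.26, limma adjusted p = 0.848). Of the 31-base stretches of Ceacam10 transcripts, 5.29% also occurred in Ceacam1 or Ceacam2. For Cd177 the share was 6.93%, with Gm4763 and BC049730, which were at or near 0.

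Of 10 genes for peptidoglycan recognition and lysis, which besides Pglyrp1 relatives include Nod1, Tlr2, Cd14 and the lysozymes, 6 were tested and none was called (median log2 fold change -0.02). Lyz2 was at 165 to 222 FPKM in IgG and 131 to 349.6 FPKM in treated tumors. Cd14, a receptor for bacterial lipopolysaccharide, was at 165, 324 and 45.2 FPKM in IgG and 181, 212 and 116 FPKM in treated tumors, without the order seen in Pglyrp1.

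Of the basigin family and monocarboxylate transporters, all 6 were tested and none was called. Bsg, a relative of Emb that escorts the same kind of transporter, had 1242, 308 and 324 FPKM across IgG tumors 1 to 3 and 854, 1324 and 1001 FPKM across treated tumors 1 to 3. IgG tumor 1 was above 2 of the treated tumors in Bsg, whereas in Emb it was below all 3. The log2 fold change was 1.07 (SE 0.54, limma adjusted p = 0.457), and without IgG tumor 1 Bsg was called higher at 1.72. The transporter gene Slc16a1 was at 7.54, 3.41 and 2.46 FPKM in IgG and 7.41, 4.33 and 3.87 FPKM in treated tumors (log2 fold change 0.25, limma adjusted p = 0.811). Nptn, a basigin relative and after Bsg the most abundant of the 6, was at 15.0, 27.3 and 16.8 FPKM in IgG and between 12.8 and 18.5 FPKM in treated tumors, with overlapping groups and a log2 fold change of -0.36 (SE 0.26, limma adjusted p = 0.601).

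Of 13 genes for related myosins and the Usher complex of Myo7a, 3 were tested and none was called, and 10 were under 1 FPKM in every tumor. Myo10, a filopodial motor, was at 20.2, 11.4 and 22.4 FPKM in IgG and 21.9, 21.3 and 37.3 FPKM in treated tumors. Of the cystatins and their protease targets, 7 were tested, none was called higher and Ctsh, a lysosomal aminopeptidase, was called lower (log2 fold change -0.59, limma adjusted p = 0.387), a call lost without IgG tumor 2, treated tumor 2 or treated tumor 3. Cstb, an intracellular cystatin, was at 274, 146 and 93.4 FPKM in IgG and 229, 298 and 277 FPKM in treated tumors. It was not called (log2 fold change 0.78, limma adjusted p = 0.440) in the fit of all tumors, and was called without IgG tumor 1, where its log2 fold change was 1.18. In the Slc35f family, Slc35f5 was at 30.7, 30.4 and 30.9 FPKM in IgG and 28.5, 30.8 and 26.8 FPKM in treated tumors, with no order like that of Slc35f1.

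The stated rule did not use position, but the genes were chosen with earlier results of these data known, so position is given as a description. Of the 7 genes, 4 lie on chromosome 7, which holds 7.70% of the tested genes (1160). The median log2 fold change of the tested genes of chromosome 7 was 0.08, against 0.01 over all. Pglyrp1 lies 5.85 Mb from Cd177. Of the 17 other protein-coding genes that start within 200 kb of Cd177 and Ceacam10, 9 were tested and 7 were under 1 FPKM in every tumor. Of the 9, 3 were called higher and none lower, against 3.90% and 4.53% of all tested genes. The treated tumors were higher without overlap in 3 of the 9, against 9.10% of all tested genes. The called genes were Lypd3, given above, Pinlyp and Gm9844. Pinlyp, a Ly6-type phospholipase inhibitor, was at 0.755, 0.395 and 0.972 FPKM across IgG tumors 1 to 3 and at 0.834, 5.77 and 8.69 FPKM across treated tumors 1 to 3, so that treated tumor 1 was with the IgG tumors (log2 fold change 1.55, limma adjusted p = 0.376). The call of Pinlyp was lost with voom and in 5 of the 6 fits that leave out a tumor. Those 6 fits gave log2 fold changes from 1.06 (without treated tumor 3) to 2.26 (without treated tumor 1). Gm9844 (log2 fold change 0.84, limma adjusted p = 0.363) was not called without IgG tumor 2, IgG tumor 3 or treated tumor 1. Rps19, a ribosomal protein gene of the same stretch, was at 91.9 to 115 FPKM in IgG and 97.3 to 106 FPKM in treated tumors (log2 fold change 0.01). Arhgef1 was at 32.2, 26.8 and 32.1 FPKM in IgG and 39.0, 46.1 and 43.2 FPKM in treated tumors. Its groups did not overlap, but it was under the 1.5-fold threshold (log2 fold change 0.49, limma adjusted p = 0.355).

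**Figure D4:**
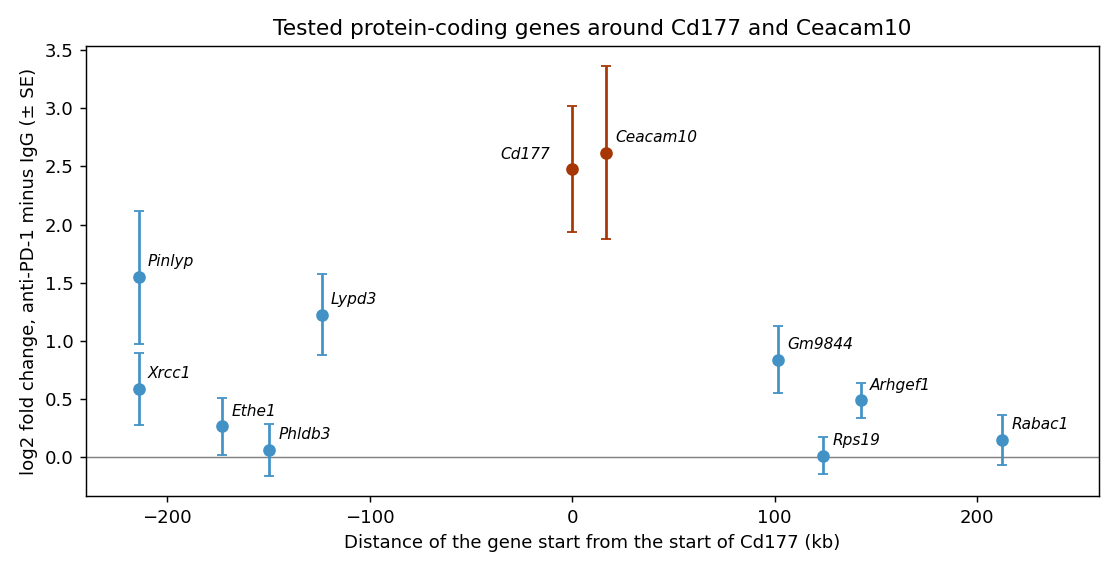
log2 fold change, anti-PD-1 minus IgG, with its standard error as bars, of the tested protein-coding genes around Cd177 and Ceacam10 (red) against the distance of each gene's start from that of Cd177 in kb. The 9 other tested genes (blue) lie between 0.01 and 1.55, below Cd177 (2.47) and Ceacam10 (2.62).

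The nearest protein-coding neighbors of the 7 genes, 12 besides the 7 themselves, included 8 tested genes. Of these 2 were called higher (Gm9844 and Banf1) and none lower, against 3.90% and 4.53% of all tested genes. Banf1, a chromatin-binding protein gene beside Cst6, had a log2 fold change of 0.66 (limma adjusted p = 0.346). Its call was lost without IgG tumor 2 or treated tumor 2 and with quantile normalization. The log2 fold changes of the 8 neighbors ran from -0.40 for Cep85l to 0.84 for Gm9844. Ccdc61, which lies 423 bp from Pglyrp1, was at 8.57, 6.97 and 5.99 FPKM across IgG tumors 1 to 3 and at 7.88, 9.87 and 8.17 FPKM across treated tumors 1 to 3. Mill2, on the other side of Pglyrp1, was at 6.96, 9.89 and 5.73 FPKM in IgG and 6.43, 7.47 and 6.06 FPKM in treated tumors. The neighbors of Pglyrp1 thus overlapped between the groups. Of all 8 tested neighbors, 4 were higher in the treated tumors without overlap (Gm9844, Banf1, Capn5 and Nus1), against 9.10% of all tested genes. Capn5, beside Myo7a, was at 22.7, 15.0 and 17.6 FPKM in IgG and 26.6, 29.3 and 25.1 FPKM in treated tumors (log2 fold change 0.55, limma adjusted p = 0.357), without overlap but under the 1.5-fold threshold. It was called higher without IgG tumor 1 (0.70) or treated tumor 3 (0.60). Foxa3, 1 of the 10 most alike genes, lies 123 kb beyond Pglyrp1 and was at 3.77, 0.920 and 0.986 FPKM in IgG and 9.26, 5.99 and 11.4 FPKM in treated tumors.

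The 250 bases before the start of transcription were read from RefSeq promoters (GRCm38.p6) for 6 of the 7 genes, and those of Cd177, Ceacam10 and Pglyrp1 are shown because these genes name the group. Capitals mark matches, on either strand, to the 8 short patterns searched. They were TATAAA (bound by TBP), CCAAT (bound by NF-Y), AGGAAG (ETS factors), TGANTCA (AP-1), TTNNGNAA (C/EBP), TTCNNNGAA (STAT), AACNNGTT (grainyhead) and TCAAAG (TCF), where N is any base.
Cd177, chr7:24760312-24760561, minus strand: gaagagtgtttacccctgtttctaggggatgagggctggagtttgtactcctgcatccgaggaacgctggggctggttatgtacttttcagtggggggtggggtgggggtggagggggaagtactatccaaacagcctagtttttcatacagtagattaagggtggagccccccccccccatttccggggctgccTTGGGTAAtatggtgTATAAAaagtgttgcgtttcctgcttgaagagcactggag
Ceacam10, chr7:24776917-24777166, plus strand: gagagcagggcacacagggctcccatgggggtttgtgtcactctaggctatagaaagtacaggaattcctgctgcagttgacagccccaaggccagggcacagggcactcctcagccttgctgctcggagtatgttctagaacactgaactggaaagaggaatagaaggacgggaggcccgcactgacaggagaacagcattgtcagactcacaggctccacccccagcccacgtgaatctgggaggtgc
Pglyrp1, chr7:18884440-18884689, plus strand: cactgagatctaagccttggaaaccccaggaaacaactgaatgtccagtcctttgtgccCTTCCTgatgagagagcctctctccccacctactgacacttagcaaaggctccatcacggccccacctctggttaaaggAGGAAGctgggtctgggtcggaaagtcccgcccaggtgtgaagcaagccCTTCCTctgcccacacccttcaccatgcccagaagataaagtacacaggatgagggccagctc

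The window of Cd177 held a match to TATAAA from -40 to -35 and a match to the C/EBP pattern from -55 to -48, counted from the start of transcription. That of Ceacam10 held no match, and that of Pglyrp1 held 3 matches to AGGAAG, of which 2 are on the opposite strand and print as CTTCCT. The RefSeq start of Pglyrp1 lies inside the longer span given above. Of 32841 windows of this length over all genes, 12.4% held TATAAA, 36.9% the C/EBP pattern and 29.5% AGGAAG. Of the other genes, Myo7a held 1 match to the C/EBP pattern, Slc35f1 held 2 to CCAAT (33.9% of all windows) and Emb held 1 to TCAAAG (13.8% of all windows). No pattern was shared by more than 2 of the 6 genes, and the AP-1, STAT and grainyhead patterns, in 6.75%, 7.02% and 3.64% of all windows, were in none of them. A match is a string of letters and not a measured binding site.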

How the data were processed

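RNAseq values of 3 IgG and 3 anti-PD-1 tumors were analyzed, with groups and replicate numbers from the sample labels. The submitters' processing notes name FastQC 0.11.9, cutadapt 3.5, Bowtie2 2.4.1, RSEM 1.3.1, DESeq2 1.36.0 and mm10. The authors deposited FPKM values per Ensembl gene and tumor, and how the FPKM was scaled is not given in the sources used here. Of 54532 IDs, 54495 matched GENCODE M21 (GRCm38). FPKM times merged exon length was a whole number of reads, within 0.1, for 97.0% to 97.3% of detected values, which gave the reads per tumor. It was not whole for Cst6.

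FPKM was divided by median-of-ratios factors (1.00 to 1.01), 1 was added, and log2 was taken. A mean FPKM of 0.5 or more was required, which left 15069 genes. The test was that of limma 3.58.1 (R 4.3.3; lmFit, eBayes with trend), two-sided with Benjamini-Hochberg adjustment. No gene had an adjusted p under 0.05, and 1848 (12.3%) had an unadjusted p under 0.05. A gene was called where p before adjustment was under 0.05 and the groups differed by 1.5-fold or more. The scripts were tested on simulated data. The 7 genes and all lists were chosen with earlier results of these data known. The rule for named genes took the 7, the 10 most alike, the defining neutrophil markers, nearby genes, and from each list up to 4 of its most abundant members, not all of which are named. List members outside that rule, such as those called in the test or an alternative, and Ctsg and Itgb2l, were named after their values were seen. Promoters came from RefSeq. Shared sequence was counted as 31-base stretches of transcripts. Alternatives were 0.1 added in place of 1, no filter, a filter at a mean FPKM of 2, no median-of-ratios factors, quantile normalization, no trend in eBayes, voom on recovered reads, a replicate block and leaving out each tumor. Tables and figures were made in Python 3.11.15 (pandas 2.3.3, matplotlib 3.10.9).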

Additional observations from a re-analysis of the deposited data

How the results depend on the processing

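The log2 fold changes of the 7 genes were above 0 in all 97 alternative fits, and 1 of these moved by more than the spread between tumors (voom for Slc35f1, 2.86). Leaving out a tumor gave 2.12 to 3.15 for Cd177, 2.06 to 3.56 for Ceacam10, 2.29 to 3.62 for Pglyrp1, 1.92 to 3.07 for Emb, 2.11 to 3.67 for Myo7a, 1.26 to 2.37 for Cst6 and 1.40 to 2.52 for Slc35f1. Over all genes the same fits called 369 (without IgG tumor 2) to 1000 (without IgG tumor 1) genes higher and 388 to 1242 (the same tumors) lower, with 0 to 12 at an adjusted p under 0.05 (12 without IgG tumor 1, 1 each without IgG tumor 3 and anti-PD-1 tumor 2). Without anti-PD-1 tumor 3, 455 were lower. The median log2 fold change of the epithelial markers was 0.17 (without anti-PD-1 tumor 3) to 0.42, and that of the neutrophil markers 0.08 to 0.29, or 0.53 at a mean FPKM of at least 2. Epithelial markers called lower numbered 0 with no filter or without anti-PD-1 tumor 3, and 1 without the trend, IgG tumor 2 or anti-PD-1 tumor 1. The direction turned in 5 fits of uncalled genes: Ceacam1 with quantile normalization (-0.028), and single tumors left out for Ltf (range -2.32 to 0.43, above 0 without IgG tumor 2), Ceacam1 (-0.043 to 0.40, below 0 without anti-PD-1 tumor 2), Slc16a1 (-0.023 to 0.63, below 0 without IgG tumor 3) and Mill2 (-0.28 to 0.058, above 0 without IgG tumor 2). Except where fewer tumors or genes entered by construction, the cause was not tested. Deviations of tumors with the same number correlated at -0.16, 0.01 and 0.19, and those of tumors with different numbers at -0.26 to 0.24. With 3 tumors per group these values cannot decide whether the numbers pair the tumors. With the replicate block 663 genes were higher, 671 lower and 0 at an adjusted p under 0.05. The calls of St14 and Ctsh were then lost, Plaur (0.85) and Cldn4 (0.94) were called higher, and Elf5 (-0.60) was called lower.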
